A study of Homo sapiens with 4 samples.

Results

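The 4 arrays of SeAx, a cell line from Sézary syndrome, the leukemic form of cutaneous T-cell lymphoma (CTCL), were compared by the number in their labels. The arrays numbered 2 were those of control 2 and miR-124 2, and the arrays numbered 1 were those of control 1 and miR-124 1, so that 2 arrays stood against 2 and each side held 1 array of each condition. All 4 arrays of the series entered the comparison, and 18244 genes were tested. The number is a replicate label only. No source used here ties it to a batch, a culture or a day, nor says that equal numbers belong together.

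The study asked what the microRNA miR-124 does to STAT3 signaling in CTCL cells. The control cells, labelled only as control, were by the study's text not transduced, and the miR-124 condition holds cells given a lentiviral vector that encodes miR-124, which by the methods were selected with puromycin. Total RNA was amplified with a 3' kit from 10 ng and hybridized to Affymetrix PrimeView arrays, and each value is the log2 signal of a probe set after background correction, quantile normalization and RMA summarization. All groups are 1 cell line. Whether replicate arrays stem from separate cultures is not stated, so a p-value here measures only the spread between these arrays. Each number holds 1 control and 1 miR-124 array. The spread within a number therefore mixes any difference between the conditions with a spread that may be technical. Each gene was represented by its brightest probe set. A gene was said to rise or fall when it differed by more than 1.5-fold between the arrays numbered 2 and those numbered 1 with an unadjusted p below 0.05, the threshold of the study, in a limma fit whose only term was the array number. The Benjamini-Hochberg adjusted p over all genes is given beside it.

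As background, a T cell that meets its antigen first switches on immediate early transcription factors, among them AP-1 proteins and the NR4A nuclear receptors, and then surface receptors, cytokines and chemokines, and it enters the cell cycle. Sézary cells derive from mature CD4+ T cells and often carry a T helper 2 cytokine profile. Matrix genes encode collagens, glycoproteins and the proteases that cut them, of which T cells make only a few. Genes of DNA replication and mitosis rise and fall with the share of cycling cells, under E2F factors and the DREAM and MuvB complexes that bind CHR elements.

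Promoter windows of 6 genes are shown because these genes are among those that passed the threshold and are described below: CXCL8, IFNG and NR4A3, which rose, and MCM10, POLE2 and NUF2, which fell. Each window holds 250 bases before and 50 after the transcription start, 300 in all, from RefSeq on GRCh38.p14, read in the direction of the gene. In the first 3, capitals mark AP-1 (TGANTCA), CRE core motifs (TGACGT) and TATA boxes (TATAAA), and in the other 3 they mark E2F (TTTNNCGC), CHR (TTTGAA) and CCAAT motifs, each searched on both strands.
CXCL8 (chr4:73740319-73740618, + strand): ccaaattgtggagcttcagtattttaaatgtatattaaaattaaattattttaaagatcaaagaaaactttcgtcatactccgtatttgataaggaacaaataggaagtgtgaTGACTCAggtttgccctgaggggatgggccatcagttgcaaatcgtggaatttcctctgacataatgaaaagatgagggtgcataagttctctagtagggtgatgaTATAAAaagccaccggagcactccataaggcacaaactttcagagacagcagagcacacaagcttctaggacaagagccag
IFNG (chr12:68159691-68159990, - strand): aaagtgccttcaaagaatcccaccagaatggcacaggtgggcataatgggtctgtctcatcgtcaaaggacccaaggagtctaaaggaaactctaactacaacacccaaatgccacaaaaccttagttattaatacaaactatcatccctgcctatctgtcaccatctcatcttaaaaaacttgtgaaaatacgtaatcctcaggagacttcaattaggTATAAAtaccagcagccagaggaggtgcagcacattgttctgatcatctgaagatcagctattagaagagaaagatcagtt
NR4A3 (chr9:99821635-99821934, + strand): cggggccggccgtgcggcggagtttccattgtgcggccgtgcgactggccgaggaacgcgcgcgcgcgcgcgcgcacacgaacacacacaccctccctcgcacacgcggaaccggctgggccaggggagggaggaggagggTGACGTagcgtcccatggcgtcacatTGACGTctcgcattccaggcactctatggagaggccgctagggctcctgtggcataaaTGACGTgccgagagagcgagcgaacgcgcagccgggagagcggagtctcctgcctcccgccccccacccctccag
MCM10 (chr10:13161308-13161607, + strand): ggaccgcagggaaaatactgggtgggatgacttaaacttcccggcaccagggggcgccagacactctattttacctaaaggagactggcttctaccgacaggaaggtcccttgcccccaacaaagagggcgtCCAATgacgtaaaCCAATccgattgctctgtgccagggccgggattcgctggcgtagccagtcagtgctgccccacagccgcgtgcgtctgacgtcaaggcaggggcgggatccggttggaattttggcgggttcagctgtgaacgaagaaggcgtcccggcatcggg
POLE2 (chr14:49688165-49688464, - strand): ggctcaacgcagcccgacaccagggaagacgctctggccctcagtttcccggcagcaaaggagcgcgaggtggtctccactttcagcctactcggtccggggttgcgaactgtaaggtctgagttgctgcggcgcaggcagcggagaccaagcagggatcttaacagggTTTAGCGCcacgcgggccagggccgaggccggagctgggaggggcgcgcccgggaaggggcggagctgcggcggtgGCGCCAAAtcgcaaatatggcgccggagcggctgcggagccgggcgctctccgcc
NUF2 (chr1:163321704-163322003, + strand): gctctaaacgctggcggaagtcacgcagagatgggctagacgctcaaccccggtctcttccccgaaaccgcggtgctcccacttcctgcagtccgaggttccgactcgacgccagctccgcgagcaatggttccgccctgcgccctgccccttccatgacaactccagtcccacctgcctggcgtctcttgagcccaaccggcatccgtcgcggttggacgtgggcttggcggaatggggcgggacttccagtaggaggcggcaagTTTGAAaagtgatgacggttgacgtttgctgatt
The CXCL8 window held an AP-1 match starting at -137 and a TATA box at -31 from the start, the IFNG window a TATA box at -31, and the NR4A3 window 3 CRE core motifs, at -109, -83 and -25. MCM10 had CCAAT at -118 and -105, POLE2 had E2F matches at -81 and -5, and NUF2 had a CHR match at 17 after the start. The window of SPP1, one of the strongest rises below, held none of the first 3 motifs. The windows of MCM10 and NUF2 also hold TGACGT letters, which are not marked there. All these matches are letters in a window, not measured binding sites.

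Over sets of windows, the motifs of cell cycle promoters marked the lists of replication and mitosis genes. E2F letters were in 27.6% of the 152 windows of these lists against 8.43% of the 20496 windows of genes tested and 6.89% of all 35116 windows, CHR letters in 32.9% against 12.4% and 15.2%, and CCAAT in 60.5% against 34.7% and 34.6%. This is a property of the lists, whatever the arrays show. Among the genes that rose, AP-1 letters were in 9.57% of 376 windows against 6.17% of those of genes tested and 7.71% of all windows, CRE core motifs in 9.84% against 9.02% and 7.98%, and TATA in 11.97% against 9.18% and 11.5%. In the 148 windows of the genes that fell, CHR letters were in 23.0%, E2F letters in 11.5% and CCAAT in 35.8%, the last close to its share in the genes tested. CRE core motifs were in 8.11% of these windows. They were in 17.1% of the windows of the replication and mitosis lists, and in 31.25% of the 16 windows of list members that fell. These motifs were therefore not particular to the genes that rose. Of the 416 genes that rose or fell, 329 had a window.

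Far more genes differed between the array numbers than between the conditions. In the arrays numbered 2, 292 genes rose, which is 1.6% of the genes tested, and 124 fell, which is 0.68%. Of these, 58 rises (0.318% of all genes) and 5 falls (0.0274%) also had an adjusted p under 0.05. These calls depend on the fit: with the condition added as a replicate block 17 rises and 0 falls had an adjusted p under 0.05 in limma, and without 1 array 0 to 11 rises and 0 falls had. At an unadjusted p under 0.05 alone, 1474 genes were higher (8.08%) and 1144 lower (6.27%). Both arrays numbered 2 lay above both numbered 1 for 23% of genes and below them for 22.1%, so a gene without overlap is common here. Among the 49293 probe sets, 1168 passed the threshold, or 2.37%. Between miR-124 and control arrays, 28 genes passed it (0.153%), and 0 genes passed in both comparisons. Each of these fits has a single term and counts the difference of the other comparison as error. A gene could therefore hardly pass in both, and the 0 does not show that the gene sets are separate.

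The rises were larger than the falls. The genes that rose had a median log2 difference of 0.78 and those that fell a median of -0.68, beside a median of 0.00 over all genes (quartiles -0.10 and 0.11). Above 4-fold there were 17 rises, 84 rises were above 2-fold, and 1 gene, SERPINB10, fell by more than 2-fold. For 34 of the rises, the arrays numbered 1 averaged under the array's background probe sets, which lay at 5.18 to 5.23, so that their size is known only as a lower bound, and 9 genes that passed were under this level in both numbers. The count of genes leans on single arrays: it ranged from 291 without miR-124 2 to 874 without control 2, and of the 416 genes 200 stayed past the threshold whichever array was left out, 158 of them rises and 42 falls.

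The difference between numbers was seen in each condition on its own, where no array is shared. Across the 18244 genes, control 2 minus control 1 and miR-124 2 minus miR-124 1 had a Pearson r of 0.67 and a Spearman rho of 0.51, and across the 9122 genes brighter than the median these were 0.80 and 0.73. Genes are not independent replicates, so these describe likeness only. In control cells 219 genes were over 1.5-fold higher on array 2, and 180 of them (82.2%) were also over 1.5-fold higher in miR-124 cells, where 554 genes were, so that the shared genes made up 32.5% of that larger set. Over 1.5-fold lower were 108 genes in control and 320 in miR-124 cells, with 50 in both, or 46.3% and 15.6%. A single gene, ADCY10, moved over 1.5-fold in opposite directions. The difference was wider in miR-124 cells, with a standard deviation over genes of 0.29 against 0.22 in control cells, and 248 of the 292 rises and 97 of the 124 falls were larger there. With 1 array per number in each condition, no test of this inequality could be made.

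**Figure D1:**
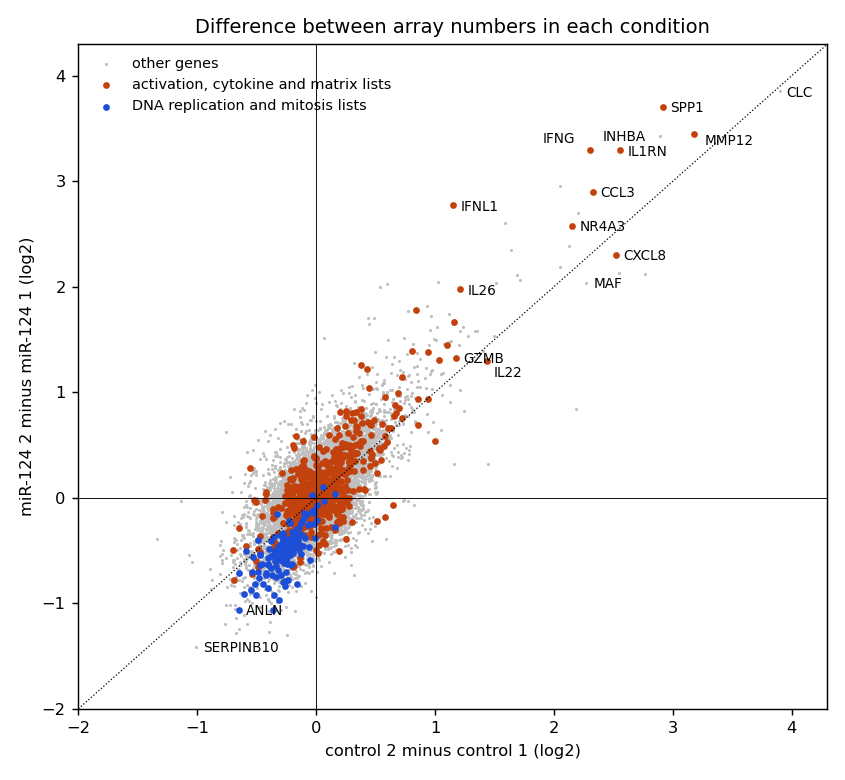
Each point is 1 of 18244 genes, with control 2 minus control 1 on the x axis and miR-124 2 minus miR-124 1 on the y axis, both in log2 units; the dotted line marks equal differences. Strong rises such as CLC, SPP1, MMP12 and INHBA lie far from 0 in both conditions, and 53 of 58 replication and 75 of 77 mitosis genes (blue) lie below 0 on both axes.

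Of 173 activation genes 13 rose (7.51%) and 0 fell, against 1.6% and 0.68% of all genes. The lists were chosen with earlier results of these data known. The shares here and below therefore describe the lists and do not test an excess. The strongest was NR4A3, an orphan nuclear receptor induced early in stimulated T cells, at 8.24 on control 1 and 10.39 on control 2, and at 8.09 on miR-124 1 and 10.67 on miR-124 2. It was 5.15-fold higher in the arrays numbered 2 (log2 difference 2.36, standard error 0.12, adjusted p = 0.0069), and 3 of its 3 probe sets rose. Its window above carries 3 CRE core motifs. Its relative NR4A1 did not move with it, at 9.46 on both arrays numbered 1 and 9.57 on both numbered 2.

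The immediate early list as a whole shifted little, with 4 of 40 genes rising (10%, against 1.6% of all genes), 0 falling and a median difference of 0.06. Beside NR4A3 these were FOSL2, an AP-1 subunit (log2 difference 0.74), ATF3, a stress-induced partner of AP-1 (0.61), and DUSP5, a phosphatase that silences nuclear ERK (0.63). The classical members FOS and EGR1 were nearly level: FOS lay between 7.10 and 7.23 on all arrays, and EGR1 had a difference of -0.08. JUN was higher on both arrays numbered 2, at 10.57 and 10.80 against 10.18 and 10.09, but its 1.46-fold difference was under the fold threshold. FOSL2 did not pass without control 1 (log2 difference 0.70) or without miR-124 2 (0.40), nor did ATF3 (0.39) and DUSP5 (0.55) without miR-124 2, whereas JUN passed without control 1 (0.59) and without control 2 (0.66).

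In T-cell receptor signaling, 3 of 32 genes rose (9.38%, against 1.6% of all genes). CBLB, a ubiquitin ligase that damps receptor signals, was at 9.53 on control 1, 10.63 on control 2, 9.32 on miR-124 1 and 10.77 on miR-124 2, and was 2.42-fold higher (log2 difference 1.28, standard error 0.11, adjusted p = 0.031). RASGRP1, the exchange factor that activates Ras below the receptor, was 1.87-fold higher, with an adjusted p of 0.071, and LCP2, the adaptor SLP-76, was 1.53-fold higher, with an adjusted p of 0.23. Of 33 activation surface molecules only SLAMF1, a costimulatory receptor, rose (1.67-fold). This is 3.03% of the list, near the 1.6% of all genes, and the list median was -0.01. IL2RA, the high-affinity chain of the interleukin 2 receptor, was bright and level at 13.44 to 13.50 on all 4 arrays. TNFRSF9 lay between 9.95 and 10.04, and CD69, an early surface marker of activation, was under the background on every array. SLAMF1 did not pass without control 1 (log2 difference 0.57) or without miR-124 2 (0.55), nor did LCP2 (0.49 and 0.36).

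Among 17 inhibitory receptors and their ligands, CD274, which encodes PD-L1, rose from 7.88 to 8.57 between the control arrays and from 8.17 to 9.15 between the miR-124 arrays (1.79-fold, adjusted p = 0.17), though it did not pass without miR-124 2 (log2 difference 0.55) or with the mean of its probe sets. CD200 also passed, but under the background on all arrays, so no fold is given. Of 38 NF-kB target genes 2 rose, BCL2L1, which encodes the survival protein BCL-XL (1.71-fold, not passing with the mean of its probe sets), and CXCL8. Rises made up 11.8% of the inhibitory list and 5.26% of the NF-kB list, beside 1.6% of all genes. GZMB, the cytotoxic protease granzyme B, was the only one of 18 cytotoxic granule genes to rise, at 10.05 on control 1, 11.23 on control 2, 10.47 on miR-124 1 and 11.79 on miR-124 2. That is a 2.39-fold difference (log2 difference 1.25, standard error 0.22, adjusted p = 0.10). GZMB alone is 5.56% of the granule list.

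**Figure D2:**
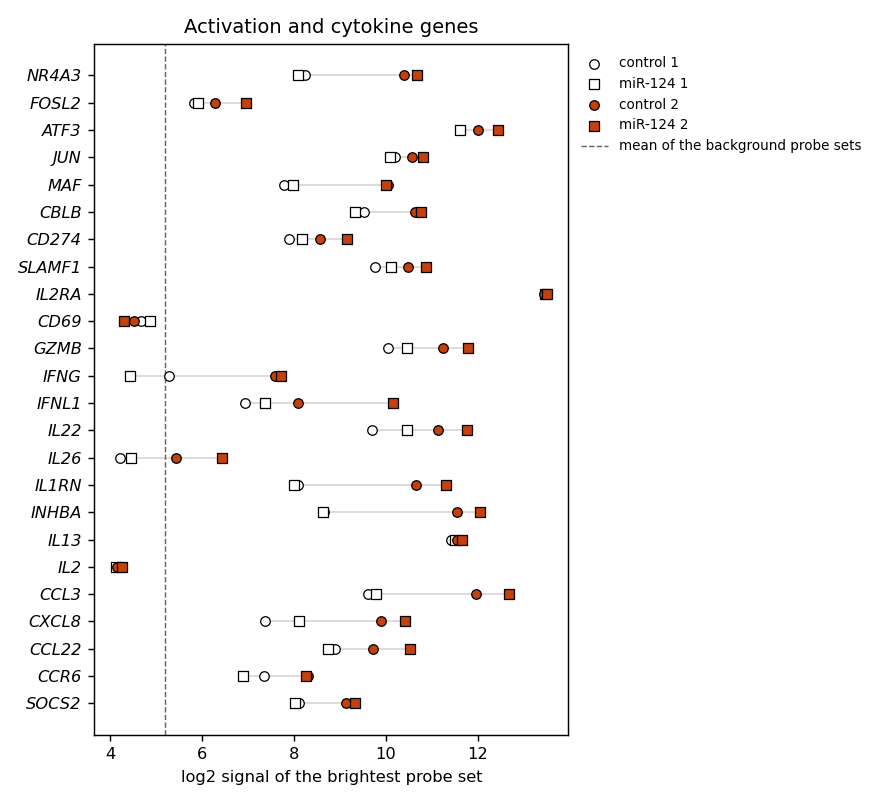
The log2 signal of the brightest probe set (x axis) of activation and cytokine genes on each array, with MAF and INHBA, which are in no list, added as 2 of the largest rises; open symbols are the arrays numbered 1, filled ones those numbered 2, circles control and squares miR-124, and the dashed line is the mean of the background probe sets. For NR4A3, INHBA, IL1RN and CCL3 both filled symbols lie over 2 log2 units above both open ones, while IL2RA, IL13 and IL2 hardly differ.

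Of 260 cytokine genes 19 rose (7.31%) and 1 fell, against 1.6% and 0.68% of all genes. IL1RN, the secreted antagonist of interleukin 1, was at 8.09 and 8.01 on the control and miR-124 arrays numbered 1, and at 10.64 and 11.30 on those numbered 2. It was 7.60-fold higher (log2 difference 2.93, standard error 0.21, adjusted p = 0.018). IFNG, the T helper 1 cytokine interferon gamma, was at 5.28 on control 1 and 4.42 on miR-124 1, near or under the background, and at 7.58 on control 2 and 7.72 on miR-124 2, at least 5.27-fold higher (adjusted p = 0.032). For both genes the arrays of the 2 numbers did not overlap.

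IL22 and IL26, epithelium-directed cytokines of the IL-10 family that lie close to IFNG, rose as well. IL22 was at 9.69 on control 1, 11.12 on control 2, 10.46 on miR-124 1 and 11.76 on miR-124 2 (2.57-fold, adjusted p = 0.15). IL26 was under the background on both arrays numbered 1 and at 5.43 and 6.44 on those numbered 2, at least 1.66-fold higher. IFNL1, which encodes interferon lambda 1, stood at 6.92 and 7.37 on the arrays numbered 1 and at 8.08 and 10.14 on those numbered 2, a 3.90-fold rise that differed widely between conditions (standard error 0.62, adjusted p = 0.25), and it did not pass without control 1 (log2 difference 1.74). Its sequence is close to that of other type III interferons, so its probe set may not be specific. In all, 3 of 42 interleukins (7.14%) and 2 of 24 interferons and TNF family ligands (8.33%) rose, against 1.6% of all genes. The list medians were 0.03 and 0.02.

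The T helper 2 cytokines were not among them. IL13 was bright at 11.42 to 11.64, IL4 lay between 6.59 and 6.74, and IL10 was 1.31-fold higher, at 5.85 and 5.77 against 6.13 and 6.28. TNF was 1.42-fold higher, under the fold threshold, and passed without control 2 (log2 difference 0.70). IL2, the growth factor of activated T cells, was under the background on all 4 arrays, as was XCL1.

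Of 37 chemokines 4 rose (10.8%) and 0 fell, against 1.6% and 0.68% of all genes, and 13 members were under the background on all arrays. CCL3, a chemokine that attracts leukocytes, was at 9.62 on control 1, 11.95 on control 2, 9.78 on miR-124 1 and 12.68 on miR-124 2, 6.12-fold higher (log2 difference 2.61, standard error 0.23, adjusted p = 0.031); its near-identical copies may share its probe set. CXCL8, the neutrophil attractant interleukin 8, was at 7.36, 9.89, 8.11 and 10.41 in the same order, 5.33-fold higher (adjusted p = 0.048), with 3 of 3 probe sets rising. CCL22, a ligand of CCR4, was 2.48-fold higher. CCL18 passed, but under the background on all arrays, and not without control 2 (log2 difference 0.51). Of 23 chemokine receptors, CCR6 (2.23-fold) and GPR15, a homing receptor for gut and skin (1.77-fold), rose, which is 8.70% of the list. GPR15 did not pass without control 2 (log2 difference 0.87), miR-124 1 (0.48) or miR-124 2 (0.78).

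Of 47 cytokine receptors, CSF2RB, the shared beta chain for IL-3, IL-5 and GM-CSF, rose 1.67-fold, and IL23R fell, at 6.73 and 6.97 on the arrays numbered 1 and 6.04 and 6.19 on those numbered 2 (1.66-fold lower). Each is 2.13% of the list, beside 1.6% of all genes that rose and 0.68% that fell, so the share of rises is near that of all genes. Of 28 JAK, STAT and SOCS genes, SOCS2, a feedback inhibitor of cytokine receptors, was 2.25-fold higher (log2 difference 1.17, standard error 0.10, adjusted p = 0.031), and BCL6, a transcriptional repressor, was 1.55-fold higher. Together they are 7.14% of the list. STAT3 itself was at 11.59 on control 1, 11.86 on control 2, 11.80 on miR-124 1 and 12.15 on miR-124 2, and did not pass. Of 63 interferon-stimulated genes 5 rose (7.94%) and 0 fell, with a median of 0.10: RSAD2 (1.91-fold) and OASL (1.56-fold), antiviral effectors, ISG15, a ubiquitin-like modifier (1.71-fold), IFIT1, which binds viral RNA (1.76-fold), and LGALS3BP, a galectin-binding glycoprotein (2.66-fold). Leaving out miR-124 1 ended the calls of CSF2RB (log2 difference 0.42) and IFIT1 (0.58), leaving out miR-124 2 those of IFIT1 (0.61) and ISG15 (0.58), and leaving out control 2 that of CSF2RB (0.49).

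The matrix lists held single large rises in otherwise level lists, and 6 of 207 genes rose (2.90%) and 1 fell, against 1.6% and 0.68% of all genes. SPP1, which encodes osteopontin, a secreted matrix glycoprotein and cytokine of activated T cells and macrophages, was at 7.39 on control 1, 10.30 on control 2, 7.004 on miR-124 1 and 10.71 on miR-124 2. It was 9.92-fold higher (log2 difference 3.31, standard error 0.18, adjusted p = 0.0069), and all 6 of its probe sets rose. MMP12, the macrophage elastase, was at 5.84 and 6.28 on the arrays numbered 1 and at 9.02 and 9.73 on those numbered 2, 9.94-fold higher (adjusted p = 0.022), and was the only one of 49 matrix proteases and inhibitors to pass.

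LAMA2, a laminin chain of basement membranes, was 1.91-fold higher (adjusted p = 0.044), POSTN, which encodes periostin, 2.14-fold, and IGFBP3, a carrier of insulin-like growth factors, 1.70-fold. COL3A1, a fibrillar collagen, was at 9.94 and 9.75 against 10.60 and 10.53, 1.64-fold higher with 5 of 5 probe sets rising, and was the only one of 41 collagens to pass. COL1A1 lay between 8.67 and 8.84, TIMP1 between 9.53 and 9.69, and FN1, which encodes fibronectin, was 1.27-fold lower, a difference that did not pass. MATN4, a matrilin, fell 1.51-fold, but did not pass without control 1 (log2 difference -0.44) or miR-124 2 (-0.54). Of 40 proteoglycan and hyaluronan genes and 25 integrins, 0 passed, beside 1.6% of all genes that rose and 0.68% that fell. Without control 2 the count of matrix genes that rose was 14.

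**Figure D3:**
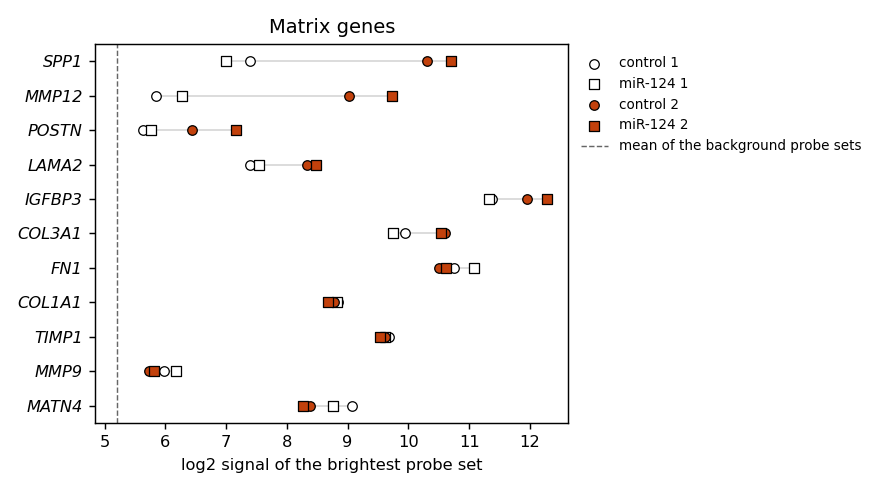
The log2 signal of the brightest probe set (x axis) of 11 matrix genes on each array, with open symbols for the arrays numbered 1, filled ones for those numbered 2, circles for control, squares for miR-124 and a dashed line at the mean of the background probe sets. SPP1 and MMP12 differ by 2.92 to 3.70 log2 units between the numbers in both conditions, while COL1A1 and TIMP1 hardly differ.

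Nearly the whole lists of replication and mitosis genes were slightly lower in the arrays numbered 2. Of 282 proliferation genes 18 fell (6.38%, against 0.68% of all genes) and 2 rose. Of 77 mitosis genes 76 were lower in the arrays numbered 2, 73 of them without overlap (22.1% of all genes were), 62 at an unadjusted p under 0.05 (6.27% of all genes), and 8 past the threshold, with a median difference of -0.40. Of 58 DNA replication genes 56 were lower, 50 without overlap, 39 at an unadjusted p under 0.05 and 6 past the threshold, with a median of -0.30. None of these genes had an adjusted p under 0.05 in limma. The exceptions were CDC25B (0.02) among mitosis genes and the origin recognition subunits ORC3 (0.08) and ORC4 (0.10) among replication genes.

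The lists were lower in both conditions, and by more in the miR-124 pair. The median of the mitosis list was -0.28 between the control arrays and -0.53 between the miR-124 arrays, and that of the replication list -0.22 and -0.40. Measured from each gene's mean over the 4 arrays, the median mitosis gene stood at 0.16 on control 1, 0.25 on miR-124 1, -0.13 on control 2 and -0.28 on miR-124 2. The median difference between miR-124 and control was -0.03 for the mitosis list, with the miR-124 array higher among those numbered 1 and lower among those numbered 2. In bulk RNA, fewer cycling cells and less RNA per cycling cell cannot be told apart.

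**Figure D4:**
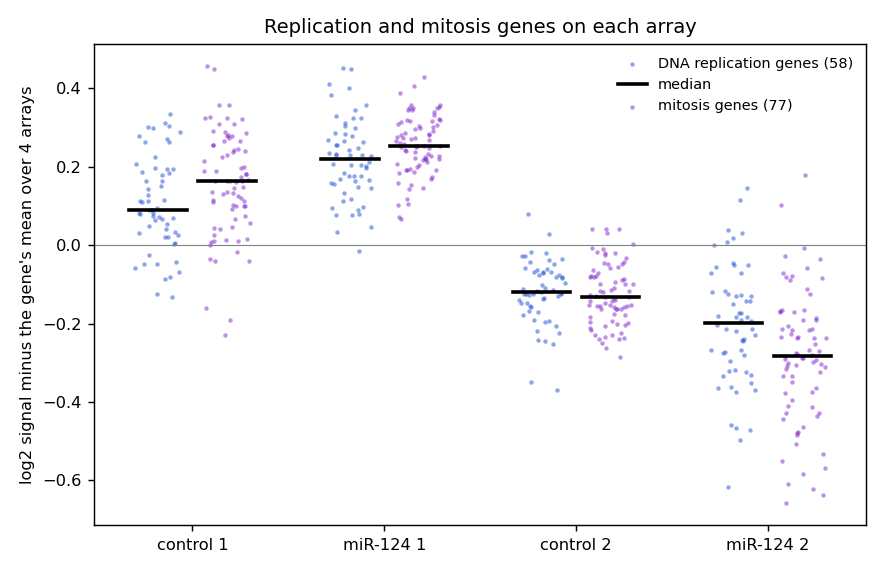
Each point is a gene of the DNA replication list (58 genes) or the mitosis list (77 genes), placed on each array by its log2 signal minus its own mean over the 4 arrays, with the median of each list as a bar. The medians lie above 0 on both arrays numbered 1 and below 0 on both numbered 2, lowest on miR-124 2.

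Of the 8 mitosis genes that fell, ANLN had the largest difference. ANLN, the actin-binding anillin of the cleavage furrow, was at 9.91 on control 1, 9.26 on control 2, 9.87 on miR-124 1 and 8.81 on miR-124 2, 1.81-fold lower (log2 difference -0.86, standard error 0.16, adjusted p = 0.11). PBK, a mitotic kinase (1.70-fold), HMMR, a spindle protein (1.64-fold), DLGAP5 (1.56-fold), KIF15 (1.55-fold), ASPM (1.55-fold), NCAPH of condensin (1.54-fold) and NUF2 of the kinetochore (1.54-fold) were lower as well. NUF2, whose window holds a CHR match, was at 9.97 and 9.95 on the arrays numbered 1 and at 9.49 and 9.18 on those numbered 2. The bright markers TOP2A (1.30-fold lower) and CCNB1 (1.20-fold lower) did not reach the fold threshold, and MKI67 was at 11.17, 11.11, 11.56 and 10.97 on control 1, control 2, miR-124 1 and miR-124 2. This brightest of the 6 probe sets of MKI67 was nearly level in control cells, while all 6 were lower in the arrays numbered 2, by 0.32 to 0.62 on the log2 scale, and 1 of them passed. Without miR-124 2, calls were lost for HMMR (log2 difference -0.44), PBK (-0.53), DLGAP5 (-0.34), KIF15 (-0.47), ASPM (-0.36), NCAPH (-0.57) and NUF2 (-0.47), so that ANLN alone of the 8 still passed. DLGAP5 was also lost without miR-124 1 (-0.61) and ASPM without control 1 (-0.58).

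Of the replication genes, POLE2, a subunit of DNA polymerase epsilon, was at 10.46 on control 1, 9.95 on control 2, 10.65 on miR-124 1 and 9.73 on miR-124 2, 1.64-fold lower (log2 difference -0.71, standard error 0.12, adjusted p = 0.094). MCM10, an initiation factor, was at 9.71, 9.16, 9.82 and 8.94 in the same order, also 1.64-fold lower, with 2 of its 3 probe sets passing. WDHD1, DUT, RFC5 and PRIM1, of the fork, the nucleotide pool, the clamp loader and primase, were 1.51-fold to 1.60-fold lower. The helicase subunit MCM2 was lower without overlap but under the fold threshold (1.36-fold). Without miR-124 2, DUT (log2 difference -0.54), RFC5 (-0.34) and PRIM1 (-0.52) did not pass, nor did RFC5 without control 1 (-0.62) or PRIM1 without miR-124 1 (-0.56). With the mean of a gene's probe sets, MCM10 and WDHD1 did not pass.

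Regulators of the cell cycle were mixed, and their counts stand beside 0.68% of all genes that fell and 1.6% that rose. Among 28 G1 cyclins, CDKs and inhibitors, E2F2 (1.64-fold) and E2F8 (1.60-fold) fell, the list median was -0.07, CCND2 was level at 14.03 to 14.07, and CDKN1A, the p21 inhibitor, was 1.25-fold higher without reaching the threshold. Of 28 p53 target genes 0 passed (median 0.06). Of 53 replication-dependent histone genes 43 were lower, 25 of them without overlap (22.1% of all genes were). Their median was -0.16 (-0.03 between the control arrays and -0.29 between the miR-124 arrays), and H4C4 fell past the threshold (1.55-fold). H2BC21 (2.63-fold, adjusted p = 0.024) and H2BC12 (2.09-fold) rose, but their other probe sets differed by 0.08, and neither gene passed with the mean of its probe sets. Histone genes share sequence, so their probe sets may not be specific. Of 39 ribosome biogenesis and MYC target genes 1 fell, POLR3G (1.51-fold), and the median was -0.08. E2F8 did not pass without miR-124 1 (log2 difference -0.52) or miR-124 2 (-0.57), nor did H4C4 (-0.40 and -0.41), and POLR3G did not without control 1 (-0.58) or miR-124 2 (-0.39). The count of proliferation genes that fell was 28 without control 1, 43 without control 2 and 7 without miR-124 2.

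**Figure D5:**
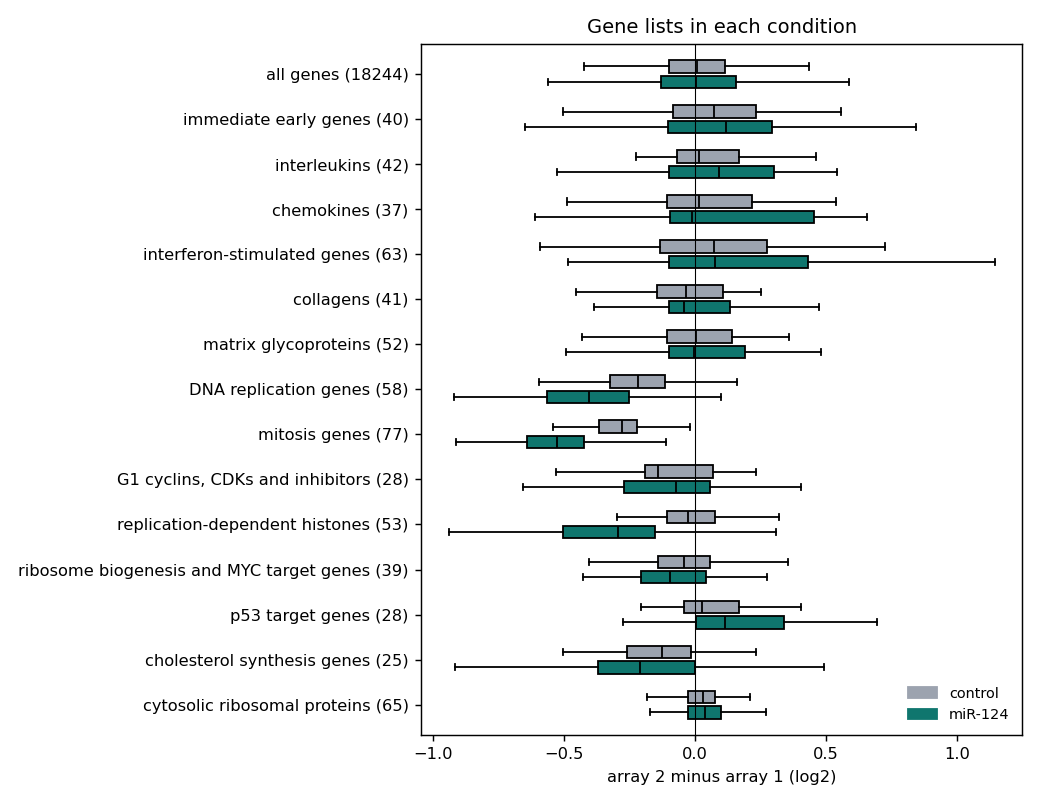
Differences between array 2 and array 1 (x axis, log2) for gene lists, with the number of genes in brackets, drawn apart for control (grey) and miR-124 (green); boxes are quartiles with the median as a line, and whiskers reach the last gene within 1.5 box lengths. The replication and mitosis boxes lie below 0 in both conditions, while those of immediate early genes, interleukins and chemokines straddle 0.

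Outside these lists, the largest rise of all was that of CLC, which encodes galectin 10, a protein of eosinophils and regulatory T cells. It was at 6.23 on control 1, 10.13 on control 2, 5.65 on miR-124 1 and 9.50 on miR-124 2, 14.7-fold higher (log2 difference 3.87, standard error 0.26, adjusted p = 0.016), from a single probe set. INHBA, the beta A subunit of activin A, was at 8.66 and 8.62 on the arrays numbered 1 and at 11.55 and 12.05 on those numbered 2, 8.94-fold higher (adjusted p = 0.0069). MAF, the transcription factor of IL-4 and IL-10 producing T cells, was at 7.77 and 7.97 against 10.04 and 10.01, 4.45-fold higher (adjusted p = 0.0069). ZBED2, a zinc finger factor (5.65-fold), TCP11L2 (2.77-fold), SAT1, which acetylates polyamines (2.74-fold), TRIM29 (2.70-fold) and RHOU (2.68-fold), completed the largest rises of genes brighter than the median.

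Among genes brighter than the median, the largest falls beyond the proliferation lists were smaller than these rises. SERPINB10, an intracellular serpin, was at 8.78 on control 1, 7.77 on control 2, 8.50 on miR-124 1 and 7.09 on miR-124 2, 2.31-fold lower (adjusted p = 0.12). CHRNA5 (1.98-fold), MCUB, an inhibitory subunit of the mitochondrial calcium uniporter (1.93-fold), TFEC (1.85-fold), PDE3B (1.84-fold), ZNF367 (1.81-fold), ZIC5 (1.80-fold), CTH (1.78-fold), H1-10 (1.75-fold), SLC4A10 (1.74-fold), NTRK2 (1.72-fold), ZNRF2 (1.72-fold) and ATAD2 (1.71-fold) were also lower. MRPL23 was 1.83-fold lower. It was at 9.56 on control 1 and at 8.21 to 8.69 on the other 3, and it passed in only 1 of the 4 fits that left out an array, that without miR-124 1, being at -0.43 on the log2 scale without control 1. H1-10 did not pass without control 1 (log2 difference -0.56), nor ATAD2 (-0.56) and ZNF367 (-0.58) without miR-124 2. CTH, an enzyme of cysteine synthesis under ATF4, TFEC and SLC4A10 were 3 of the 5 falls with an adjusted p under 0.05, none of which kept it with the replicate block or without any 1 array. With the mean of probe sets, H1-10, NTRK2, SLC4A10, ZIC5 and ZNF367 did not pass.

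Of 30 unfolded protein response genes 2 rose, ATF3 and PPP1R15A (1.61-fold), and CTH fell, against 1.6% and 0.68% of all genes. In this list 20 genes were lower and 10 higher, 12 and 6 of them without overlap (22.1% and 23% of all genes), with a median of -0.06. Of 33 hypoxia and glycolysis genes BNIP3 (1.52-fold) and NDRG1 (1.55-fold) rose, against 1.6% of all genes. Of these, PPP1R15A did not pass without control 1 (log2 difference 0.53) or miR-124 2 (0.37), BNIP3 without control 2 (0.58) or miR-124 1 (0.54), and NDRG1 without control 1 (0.61), miR-124 1 (0.65) or miR-124 2 (0.26). Of 25 cholesterol synthesis genes DHCR7 (1.59-fold) and INSIG1 (1.63-fold) fell, 15 were lower without overlap (22.1% of all genes were), 8 were lower at an unadjusted p under 0.05 (6.27% of all genes), and the median was -0.17. DHCR7 did not pass without miR-124 1 (-0.48), nor INSIG1 without control 1 (-0.60) or miR-124 2 (-0.40). Of 20 heat shock, 65 ribosomal protein and 52 respiratory chain genes, 0 passed.

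Markers and array controls were compared between the numbers beside these results. The T-cell genes CD3D (11.97 to 12.07) and CD3G (11.73 to 12.06) were bright on all arrays. CD3E (5.33 to 5.82), CD5 (5.55 to 5.69), CD4 (6.14 to 6.24) and LCK (6.41 to 6.61) were dim. CD2 was higher on both arrays numbered 2 (log2 difference 0.44) without passing, and its other probe set did not go in the same direction. In all, 0 of 8 T-cell and 0 of 9 Sézary cell markers passed, although CDO1 and PLS3 were under the background. Over all genes 1.6% rose and 0.68% fell, so few members would pass in lists this short. The summed log2 signal of 5 B-cell markers was 38.5 to 39.1 on the arrays numbered 1 and 39.4 to 39.7 on those numbered 2, and that of 5 keratinocyte markers 31.3 and 30.2 to 30.8, with 0 passing in either list. The largest B-cell difference was that of MS4A1 (0.56), whose arrays numbered 1 averaged under the background. Among the keratinocyte markers KRT10 differed most (-0.47), and DSG3, KRT1 and KRT14 were under the background. For monocytes and macrophages, which also express SPP1, MMP12 and IL1RN, 0 of 8 markers passed, their summed log2 signal was 45.8 on every array, and LYZ, CD163, FCGR3A and S100A8 were under the background. CSF1R, the brightest of these markers, was lower on both arrays numbered 2 (log2 difference -0.42) without passing. Of 8 fibroblast markers only COL3A1 rose, the summed signal was 52.9 on both arrays numbered 1 and 53.1 to 54.3 on those numbered 2, and DCN and LUM were under the background. The array medians lay at 7.27 to 7.31. Of 18 hybridization spike probe sets, 13 were higher on both arrays numbered 2 than on both numbered 1 (23% of all genes were). The median difference over all 18 was 0.07. The 3' minus 5' difference for GAPDH was -0.45 on control 1, -0.35 on control 2, -0.40 on miR-124 1 and -0.24 on miR-124 2, while that for ACTB was 1.17, 1.13, 0.97 and 0.99. The part of the marker sums, the spikes and these RNA measures in the results was not tested.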

How the data were processed

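SeAx RNA was measured on 4 PrimeView arrays, 2 control and 2 miR-124, and grouped by the number in the labels. The authors deposited 1 log2 value per probe set, after correcting the background, quantile-normalizing the arrays and summarizing by RMA, whose version is not given in the sources used here. They were used as deposited. One methods paragraph names Agilent and another Affymetrix arrays. The labels name Affymetrix. Quantile normalization hides a change of total RNA, so differences are relative to the other genes of an array.

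Of 49495 probe sets, 202 array controls were left out. Of the others, 45278 had 1 gene symbol, 1333 several and 2682 none in the platform annotation. Each gene took its probe set of highest mean. The test was limma's (version 3.58.1, under R 4.3.3; lmFit with eBayes, array number as the only term, 2 residual and 3.86 prior degrees of freedom), checked on simulated data. The background was the mean of 23 background probe sets. Where the dimmer number averaged under it, a fold is a bound against it.

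The 15 largest rises and 15 largest falls without overlap and brighter than the median, up to 4 members of each list a direction, and 31 fixed genes, of which 29 were on the array by symbol, were named. Genes named outside this rule were chosen after their values were seen. The comparison and the gene lists, written from textbook knowledge, were chosen with earlier results of these data known. Alternatives were a replicate block, leaving out each array, a filter on dim genes, cyclic loess, median centring, a trended robust prior and averaging a gene's probe sets. Some genes may not be reported here. With 4 arrays, their number limits the precision.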

Additional observations from a re-analysis of the deposited data

Results flagged for a closer look

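Among the genes named, 5 that did not pass the threshold moved in opposite directions in the 2 conditions, by values close to the spread of level genes, and this difference was not tested. For XCL1, a chemokine under the background, array 2 minus array 1 was -0.11 in control and 0.31 in miR-124 cells, a difference between the conditions of 0.41. For IL2, also under the background, these were -0.08 and 0.13, a difference of 0.21. For IL4 they were 0.07 and -0.15, a difference of -0.22. For IL2RA they were -0.06 and 0.04, a difference of 0.10, and for CCND2 they were -0.03 and 0.04, a difference of 0.074.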

How the results depend on the processing

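With 2 arrays per number, no setting fixes the count of genes closely. Leaving out 1 array gave 291 to 874 genes past the threshold in place of 416, 0 to 11 in place of 63 at an adjusted p under 0.05, and 803 to 2552 in place of 1168 probe sets. It gave 9 to 18 activation, 17 to 25 cytokine and 7 to 14 matrix genes that rose, and 7 to 43 proliferation genes that fell. In these fits the lone array of a number is assumed to vary like the other number. Leaving out genes under the median left 271 genes and 746 probe sets, and median centring gave 108 genes at an adjusted p under 0.05. The labels do not pair the numbers across conditions. With the condition added to the fit, so that each replicate number is compared within its condition (the replicate block), 423 genes passed, among them all 416, and 17 at an adjusted p under 0.05, all rises, while for miR-124 against control 49 genes passed with the array number as a replicate block, against 28. Of the 416 genes, 406 kept their call under cyclic loess, 396 under median centring, 416 under the trended robust prior and 294 with the mean of probe sets, and 0 changed sign in any setting. Of 79 named genes that passed, 41 did so in every setting. Signs changed only in level genes. Without 1 array, the log2 difference ranged from -0.22 to 0.067 for EGR1, from -0.036 to 0.019 for IL2RA, from -0.019 to 0.024 for CCND2, from -0.030 to 0.080 for IL2, from -0.096 to 0.019 for IL4 and from -0.12 to 0.32 for XCL1. EGR1 was at 0.026 with the mean of probe sets, IL2RA at 0.034 under cyclic loess and CCND2 at -0.014 under median centring. With the mean of probe sets, 15 named genes no longer passed, namely BCL2L1, BNIP3, CD200, CD274, FOSL2, H1-10, H2BC12, H2BC21, MATN4, MCM10, NTRK2, SLC4A10, WDHD1, ZIC5 and ZNF367. The cause of these changes was not tested. Of 300 list medians under these settings, 65 moved by more than the spread, and those of the replication and mitosis lists stayed below 0.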

Other observations

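Some further genes that passed the threshold were chosen after their values were seen, so they are values only. BTG1, an antiproliferative factor, was at 9.70 on control 1, 10.55 on control 2, 9.75 on miR-124 1 and 10.85 on miR-124 2 (1.97-fold). CCNG2, an atypical cyclin, was 2.19-fold higher, YPEL2 and YPEL5 were 2.46-fold and 2.11-fold higher, and ARRDC3, an arrestin-like protein, was 2.16-fold higher (adjusted p = 0.022). CITED2, a transcriptional coregulator, was 2.13-fold higher, SESN3, which restrains mTORC1, was 1.75-fold higher, and DEPP1 was 2.04-fold higher. PRDM1, the repressor Blimp-1, was at 9.70 and 9.65 on the arrays numbered 1 and at 10.44 and 10.55 on those numbered 2 (1.76-fold, adjusted p = 0.044). SESN3 did not pass without miR-124 1 (log2 difference 0.54).

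CENPH, a kinetochore protein that is not in the mitosis list, was at 8.57 on control 1, 7.85 on control 2, 8.56 on miR-124 1 and 7.73 on miR-124 2 (1.71-fold lower, adjusted p = 0.048), and SKA1, SKA2 and SKA3, which form a complex at the kinetochore, were 1.51-fold, 1.60-fold and 1.63-fold lower. FBXO5, the EMI1 inhibitor of the anaphase-promoting complex, was 1.67-fold lower. Without miR-124 2, SKA1 (log2 difference -0.58), SKA2 (-0.50) and FBXO5 (-0.43) did not pass, nor did SKA1 without miR-124 1 (-0.50). AKR1C2, an aldo-keto reductase, was under the background on control 1 (4.94) and miR-124 1 (5.20) and at 7.70 on control 2 and 7.32 on miR-124 2, at least 4.95-fold higher, and its near-identical relatives may share its probe set.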
